A study of Mus musculus with 9 samples.

Results

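The genes described here are the zinc-finger transcription factors Egr1, Egr2 and Egr3, their corepressors Nab1 and Nab2, and the growth regulator Myc, chosen by name as 6 of the 53379 genes measured by RNA sequencing in mouse bone marrow (BM)-derived macrophages (Mϕs). BM of WT C57BL/6 mice was cultured for 3 days with CSF-1 at 10 ng/ml to drive Mϕ differentiation. The cells then received, for 4 days, CSF-1 alone (Control), CSF-1 with 10 ng/ml IL-4 or CSF-1 with 100 ng/ml IL-6. These doses and times are those of the labels, while the methods of the study name another IL-4 dose and its legends name other doses and times. CSF-1 was present in every group, each group had 3 libraries, and the libraries are numbered 1 to 3, taken here as the 3 mice that the design names. Such cultures can hold several cell types, and in bulk RNA fewer cells of a type and less RNA per cell cannot be told apart.

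EGR proteins are immediate-early factors: growth factors and cytokines switch on their genes within minutes through MAPK signalling, ELK factors and SRF, and no new protein is needed for it. They bind GC-rich DNA. NAB1 and NAB2 do not bind DNA themselves but dock onto EGR1, EGR2 and EGR3 and recruit repressor complexes, and NAB2 is itself a product of EGR activity, so the system limits itself. EGR1 and EGR2 are also linked to the step from myeloid progenitor to Mϕ, in which NAB proteins take part. MYC pairs with MAX to drive genes of ribosome building and metabolism, and proteins of the MXD family compete with it for MAX.

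All 6 genes passed the filter of a mean of 0.5 FPKM (fragments per kilobase of exon and per 1000000 fragments) over the 9 libraries. A change was called where the adjusted p was under 0.05 and the log2 fold change, computed from log2(FPKM + 0.1), was 1 or more in size. The genes lie on GRCm38 with the identifiers of the table. Egr2 (ENSMUSG00000037868.15) is on chromosome 10 from 67535475 to 67542188 and Egr3 (ENSMUSG00000033730.4) on chromosome 14 from 70077203 to 70082614, both on the plus strand. Nab1 (ENSMUSG00000002881.14) is on the minus strand of chromosome 1 from 52457294 to 52500679, Nab2 (ENSMUSG00000025402.12) on the minus strand of chromosome 10 from 127660918 to 127668568, and Myc (ENSMUSG00000022346.15) on the plus strand of chromosome 15 from 61985391 to 61990374.

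The upstream sequence of Egr2 is shown because Egr2 was the gene of the family with the widest range of levels across the libraries. It has 5 RefSeq start sites (GRCm38.p6). The 250 bases before the start site at position 67537869, chr10:67537619-67537868 on the plus strand, lie within the annotated span of Egr2 and have a GC content of 61.6%. Capitals mark a CArG box, the element that SRF binds, 72 to 63 bases before the start.
Egr2 upstream: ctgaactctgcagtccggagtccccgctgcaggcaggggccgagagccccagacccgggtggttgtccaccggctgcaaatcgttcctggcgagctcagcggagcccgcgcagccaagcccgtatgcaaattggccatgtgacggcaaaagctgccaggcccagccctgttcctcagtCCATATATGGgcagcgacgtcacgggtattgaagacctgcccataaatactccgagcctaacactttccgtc

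The windows of 4 of the 5 start sites held a CArG box. Those of the starts at 67537869, 67537870 and 67537930 overlap and hold the same box, CCATATATGG. The window of the start at 67537566 held another, CCTTTTTTGG. Over 32817 promoter windows of the same length, 1.47% held one on either strand. The fifth Egr2 window, of the start farthest upstream, held the E-box CACGTG, the letters MYC and MAX bind, which 6.02% of windows held. Neither form of the EGR site, GCGTGGGCG or GCGGGGGCG, was found in an Egr2 window, nor was TTC followed by GAA at the STAT spacing of 3 or 4 bases, which 7.01% and 5.85% of windows held.

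For Nab1, 3 short stretches of 29 bases before the RefSeq start at position 52500448 are shown because they hold the letters of the EGR site, in capitals. They are written 5′ to 3′ on the minus strand, that of the gene, and come from chr1:52500571-52500599, chr1:52500539-52500567 and chr1:52500468-52500496 in that order. A longer GENCODE first exon covers this window.
Nab1 first: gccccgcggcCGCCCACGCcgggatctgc
Nab1 second: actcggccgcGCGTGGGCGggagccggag
Nab1 last: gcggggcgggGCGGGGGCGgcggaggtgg

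In the first stretch the site reads GCGTGGGCG on the opposite strand. Among all windows, 0.536% held GCGTGGGCG and 2.57% held GCGGGGGCG. The Nab1 window had a GC content of 80.8%, and those windows were not matched to it in GC content. None of the motifs searched was found in the window of Nab2. Upstream sequence was at hand for 3 of the 6 genes, so Egr1, Egr3 and Myc were not searched. A motif match is a description of letters, and binding was not measured here.

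Depth, read back from the whole-fragment steps of the FPKM values, ran from 29988160 to 39909571 fragments per library. The cytokine labels were checked on known response genes. Socs3, the feedback inhibitor that STAT3 induces, had a mean of 2.27 FPKM in Control, 2.56 under IL-4, and 80.4 under IL-6, and Arg1, the arginase of alternatively activated Mϕs, went from 0.577 in Control to 1044 FPKM with IL-4. All 8 Mϕ markers were detected in every group. With IL-4, 5 of the 8 were called lower (Adgre1, Csf1r, Fcgr1, Lyz2 and Cd14) and none higher. The sum of the 8, mostly Lyz2, was 6021 to 7062 against 16660 to 18970 FPKM in Control. Of those not called, Itgam averaged 60.1 FPKM against 35.3 in Control, Cd68 850 against 1513, and Mertk 23.5 against 58.6. With IL-4, 7 of 8 neutrophil markers were called lower, with sums of 418 to 534 against 1110 to 1928 FPKM, while 3 of 4 tested mast cell and basophil markers were called higher (sums of 44.6 to 76.6 against 12.5 to 28.3 FPKM, Mcpt4 at 0). Of 3 dendritic cell markers tested with IL-4, Batf3 was called higher and Siglech lower (3.33 to 0.960 FPKM), and the list of 6 summed to 35.5 to 87.6 FPKM, mostly Batf3, against 9.50 to 11.0 in Control. No B cell or erythroid marker was called with either cytokine, Cd4 alone of the T and NK cell list was tested and was called lower with IL-4, and stromal markers summed to at most 0.717 FPKM. The Mϕ, neutrophil, mast cell and dendritic cell lists moved with every IL-4 result below, and their part in those results was not tested.

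The libraries also fell into sets that the groups do not explain. Fragments of 15 intestinal genes numbered 31.6 to 47.4 per 1000000 in IL-4 #1 and the 3 Control libraries, while the other 5 libraries had 0.099 to 0.229. Control against IL-6 lies wholly between these sets, so that difference and the set cannot be told apart from these groups alone, and a model that includes the set leans on the IL-4 libraries. Of 12 skeletal muscle genes, Myh1 and Myl1 had 0 fragments in Control, and 60 to 106 and 43 to 86 in the IL-6 libraries. Under IL-4 they had 0 to 102 and 0 to 82. Of the 6 muscle genes tested, 0 were called higher and 1 lower with each cytokine. The source of these fragments was not tested. IL-4 #3 stood apart for several of the genes below. Over all tested genes the median log2 difference between IL-4 and Control was -0.20, and it was -0.01 once each library was rescaled by its median ratio. For IL-6 against Control it was near 0 with either scale.

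IL-4 raised Egr2 (6.34-fold by mean FPKM) and Myc (5.23-fold), and lowered Nab1. Of the 6 genes, 3 were called with IL-4, where 13.9% of the 12824 genes tested were called. Against that background, 5.02% of genes were called higher and 8.89% lower. IL-6 gave 2 calls, Egr1 higher and Egr2 lower, where 5.38% of genes were called (3.49% higher and 1.89% lower). Between IL-6 and IL-4, 4 were called, with Egr3 and Nab1 higher and Egr2 and Myc lower with IL-6, where 20.4% of genes were called (13.6% higher and 6.82% lower). By the adjusted p without the fold threshold, 24.8%, 8.4% and 34.1% of genes passed in these comparisons, and the libraries of the groups did not overlap for 40.3%, 43.2% and 56.9%. Of the 6 genes, 5, 4 and 5 had no overlap. Nab2 was called in none of the 3 comparisons.

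**Figure D1:**
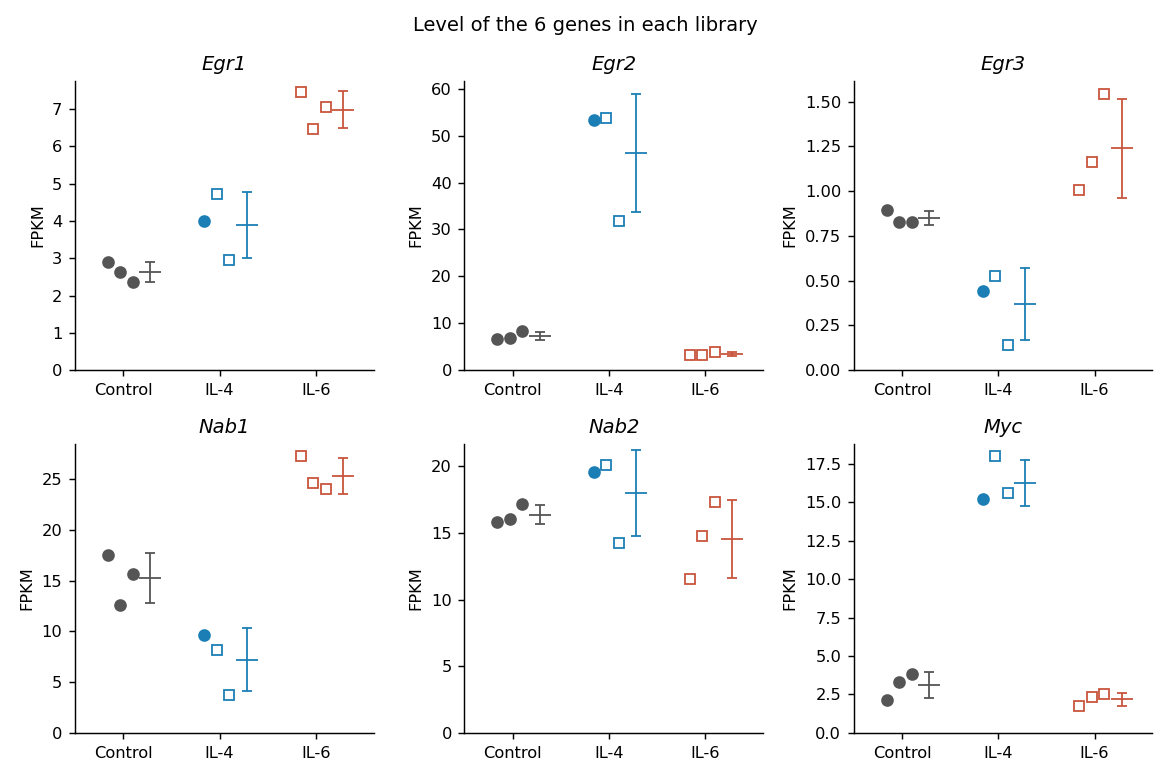
Level of the 6 genes in FPKM (linear axis from 0) in each of the 9 libraries by group, with the mean and SD (n = 3) beside the points. Filled circles are the 4 libraries rich in intestinal fragments and open squares the other 5. Egr2 and Myc stand highest in the 3 IL-4 libraries, Egr1 and Nab1 in the 3 IL-6 libraries, and the groups overlap for Nab2.

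Egr2, which is required for the myelin program of Schwann cells and acts in lymphoid and myeloid cells too, showed the largest differences of the 6 with IL-4 and between the cytokines. It stood at 6.66, 6.92 and 8.33 FPKM in Control, 53.2, 53.8 and 31.8 under IL-4, and 3.16, 3.33 and 3.84 under IL-6. The 3 groups did not overlap, and IL-4 #3 was the lowest of the IL-4 libraries yet far above every Control and IL-6 library. The mean rose 6.34-fold with IL-4, from 7.30 ± 0.898 to 46.3 ± 12.6 FPKM (SD, n = 3), a log2 fold change of 2.61 (SE 0.217, adjusted p = 0.000105). In IL-4 #1, which shares the set of the Control libraries, Egr2 was 7.29 times the Control mean.

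IL-6 took Egr2 the other way, to 3.44 ± 0.358 FPKM, which is 0.471 of the Control mean. The log2 fold change was -1.06 (SE 0.217, adjusted p = 0.0218), just past the fold threshold. With the mouse number as a block the adjusted p was 0.0561, and once the set entered the model the value was -0.70 (adjusted p = 0.299) in place of -1.06, so the call did not hold in those fits. Nor did it hold when any single Control or IL-6 library was left out, where the value lay between -1.14 and -0.96 and the adjusted p between 0.0541 and 0.103. IL-6 and IL-4 differed by -3.68 (SE 0.217, adjusted p = 1.07e-05), and within the 5 libraries with few intestinal fragments the IL-6 mean was 0.0804 of the IL-4 mean.

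Egr1, the family member best known for its response to growth factors and stress, was ordered differently. The gene (ENSMUSG00000038418.7) lies on the plus strand of chromosome 18 from 34859823 to 34864984. Its level was 2.91, 2.64 and 2.36 FPKM in Control, 4.01, 4.72 and 2.96 under IL-4, and 7.46, 6.45 and 7.05 under IL-6. Every IL-6 library stood above every IL-4 library, and every IL-4 library above every Control library, although IL-4 #3 came close to the highest Control library. With IL-6 the mean rose 2.65-fold, from 2.64 ± 0.274 to 6.99 ± 0.506 FPKM (SD, n = 3), with a log2 fold change of 1.38 (SE 0.186, adjusted p = 0.00336). With the set as a term the value was 1.48, but the adjusted p was 0.104.

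With IL-4 the Egr1 difference of 0.53 (SE 0.186, adjusted p = 0.0734) did not pass the test. Without IL-4 #3 it was 0.71 (adjusted p = 0.00381), still under the fold threshold. Comparing the cytokines, IL-6 exceeded IL-4 by 0.85 (SE 0.186, adjusted p = 0.00914), also under the fold threshold, and within the 5 libraries with few intestinal fragments the IL-6 mean was 1.82 times the IL-4 mean.

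Egr3, which shares the DNA-binding domain of the family and is studied mostly in lymphocytes and muscle spindles, was the scarcest of the 6. Its values were 0.897, 0.825 and 0.828 FPKM in Control, 0.445, 0.524 and 0.142 under IL-4, and 1.01, 1.16 and 1.54 under IL-6. The groups did not overlap, but the IL-4 values rested on 25 to 70 fragments and IL-4 #3 lay far below the others. The difference with IL-4 was -1.13 (SE 0.367, adjusted p = 0.057) and that with IL-6 was 0.47 (SE 0.367, adjusted p = 0.537), and neither was called. The difference of 1.60 from IL-4 to IL-6 (SE 0.367, adjusted p = 0.0113) was called.

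Egr4, the remaining family member, was counted at 2, 0 and 2 fragments in Control and 0 in the other 6 libraries, at or under the floor of 3 fragments, and no fold is given.

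Summed over Egr1, Egr2 and Egr3, EGR mRNA reached 10.8 ± 0.631 FPKM in Control, 50.5 ± 13.6 under IL-4 and 11.7 ± 0.750 under IL-6 (SD, n = 3). The IL-6 libraries overlapped Control in this sum (two-sided exact permutation p = 0.2, where 3 against 3 cannot go below 0.1), while its makeup differed. Egr2 made up 67.5 ± 4.41% of the sum in Control, 91.5 ± 0.669% under IL-4, and 29.5 ± 2.04% under IL-6, and Egr1 made up 24.6 ± 3.73%, 7.81 ± 0.778% and 59.95 ± 3.84% in the same order. The ratio of Egr2 to Egr1 was thus 2.81 ± 0.643 in Control, 11.8 ± 1.31 under IL-4, and 0.494 ± 0.0637 under IL-6, with no overlap between groups (exact permutation p = 0.1 each). The leading EGR transcript was Egr2 in the Control and IL-4 libraries and Egr1 in the 3 IL-6 libraries.

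**Figure D2:**
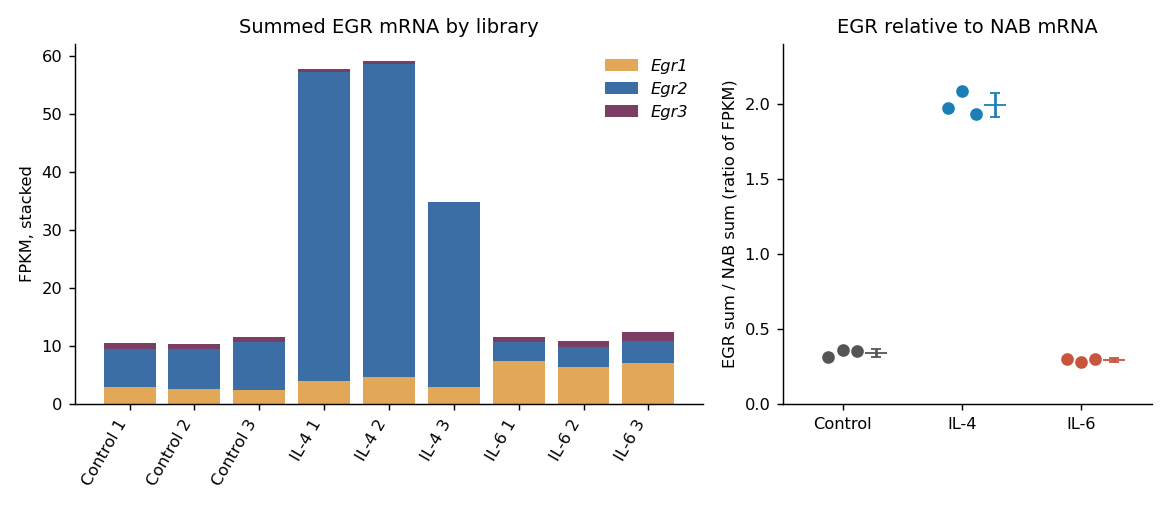
Left, Egr1, Egr2 and Egr3 stacked in FPKM for each of the 9 libraries. Right, ratio of the EGR sum (Egr1, Egr2, Egr3) to the NAB sum (Nab1, Nab2) for each library with the mean and SD (n = 3). The IL-4 bars are almost all Egr2, the IL-6 bars are about as tall as Control but mostly Egr1, and the ratio stands near 2.00 with IL-4 against 0.342 in Control and 0.293 with IL-6.

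Nab1, a corepressor present without stimulation in many cells, had 17.5, 12.6 and 15.6 FPKM in Control, 9.68, 8.21 and 3.77 under IL-4, and 27.3, 24.6 and 24.0 under IL-6. Each group kept apart from the others, with IL-4 #3 by far the lowest library. The mean fell with IL-4 from 15.3 ± 2.49 to 7.22 ± 3.08 FPKM (SD, n = 3), a log2 fold change of -1.16 (SE 0.320, adjusted p = 0.0308). The call was kept in 2 of 9 fits that each left out 1 library, those without IL-4 #1 or IL-4 #2. Without IL-4 #3 the difference was -0.75 (adjusted p = 0.0054), short of the fold threshold. When any single Control or IL-6 library was left out it lay between -1.06 and -1.29, with adjusted p from 0.052 to 0.104, and with median-ratio rescaling it was -0.97 (adjusted p = 0.0219). A model with the set gave -0.64 (adjusted p = 0.403).

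With IL-6, Nab1 was 25.3 ± 1.76 FPKM, 1.66 times the Control mean. The log2 difference of 0.74 (SE 0.320, adjusted p = 0.233) was not called, although the adjusted p was 0.00638 without IL-4 #3, a library that enters the shared estimate of the spread. Between IL-6 and IL-4 the difference was 1.90 (SE 0.320, adjusted p = 0.0027), and within the 5 libraries with few intestinal fragments the IL-6 mean was 4.22 times the IL-4 mean.

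Nab2, the EGR-inducible corepressor, had the smallest difference of the 6 in each comparison. It stood at 15.9, 16.1 and 17.2 FPKM in Control, 19.6, 20.1 and 14.3 under IL-4, and 11.6, 14.8 and 17.3 under IL-6. All 3 groups overlapped. The difference was 0.12 with IL-4 (95% interval -0.31 to 0.55, adjusted p = 0.669) and -0.19 with IL-6 (95% interval -0.61 to 0.24, adjusted p = 0.635), intervals that leave out a change of 1 on the log2 scale in either direction. The exons of Nab2 share 1050 bases, 35.7% of its exon length, with the antisense gene Gm16229, which lay between 0 and 0.285 FPKM. They also share 151 bases (5.13%) with Nemp1, on the opposite strand, which lay between 0.817 and 2.31 FPKM, and 40 bases with Stat6. The library kit marks strand, but whether the counting used it is not given in the sources used here.

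The NAB sum was 31.6 ± 2.56 FPKM in Control, 25.2 ± 6.22 under IL-4, and 39.8 ± 1.31 under IL-6. Control and IL-4 overlapped in this sum (exact permutation p = 0.2). Nab1 made up 48.0 ± 4.31% of it in Control, 27.6 ± 6.21% under IL-4, and 63.6 ± 6.20% under IL-6. EGR mRNA relative to NAB mRNA was 0.342 ± 0.0255 in Control, 1.996 ± 0.0796 under IL-4, and 0.293 ± 0.0129 under IL-6, and no library of one group reached another (exact permutation p = 0.1 each, the smallest possible). IL-4 #3, low in both sums, had a ratio of 1.93, beside 1.97 and 2.08 in the other IL-4 libraries. In Control and IL-6 libraries the NAB transcripts were the most abundant of the 6, and in all 3 IL-4 libraries Egr2 was.

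Myc had 2.16, 3.33 and 3.84 FPKM in Control, 15.2, 18.0 and 15.6 under IL-4, and 1.72, 2.32 and 2.52 under IL-6. The IL-4 libraries lay far above all others, and IL-6 overlapped Control. The mean rose 5.23-fold with IL-4, from 3.11 ± 0.860 to 16.3 ± 1.51 FPKM (SD, n = 3), with a log2 fold change of 2.38 (SE 0.233, adjusted p = 0.000227). In IL-4 #1 it was 4.88 times the Control mean. The difference with IL-6 was -0.47 (SE 0.233, 95% interval -1.003 to 0.07, adjusted p = 0.305) and was not called. From IL-4 to IL-6 it was -2.85 (SE 0.233, adjusted p = 5.69e-05). IL-4 #3, which was the lowest IL-4 library for all 3 EGR genes and for Nab1 and Nab2, was not the lowest for Myc.

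**Figure D3:**
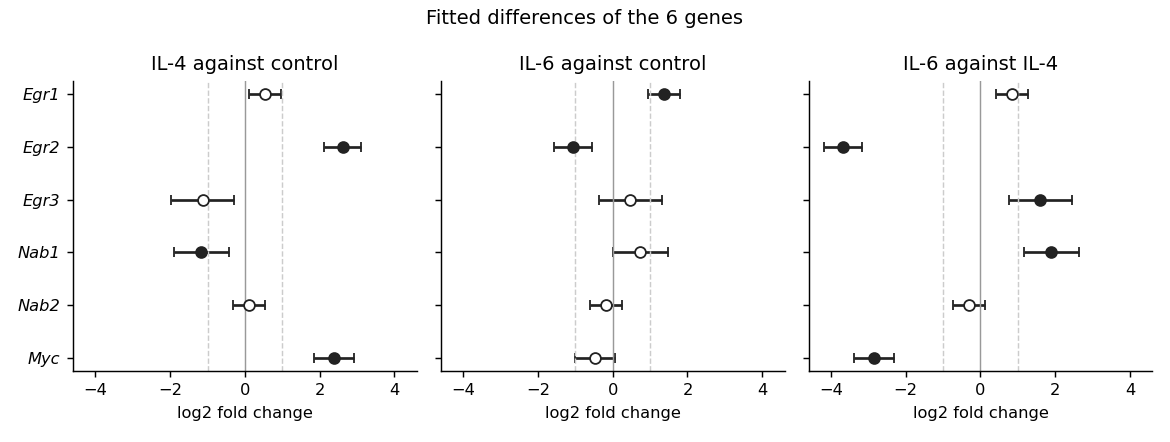
Fitted log2 fold changes of the 6 genes with 95% intervals for IL-4 against Control, IL-6 against Control and IL-6 against IL-4, from log2(FPKM + 0.1) in limma. Filled points were called, and dashed lines mark a change of 1 in either direction. Egr2 and Myc lie far to the right with IL-4 (2.61 and 2.38), Egr1 lies at 1.38 with IL-6, and the Nab2 intervals include 0 in each comparison.

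Genes that feed signals to EGR genes were taken as a list of 14, made up of SRF and its coactivators, ELK factors and the MAPK cascade. Of these, 1 was called with IL-4 and none with IL-6, where 13.9% and 5.38% of all genes were called. The list medians were -0.12 with IL-4 (all genes -0.20, and 0.08 for the list after median-ratio rescaling) and 0.22 with IL-6. With limma and no fold threshold, 2 and 0 of the 14 had an adjusted p under 0.05. The one called was Elk3, an ETS factor that partners SRF and often represses, which stood at 9.95, 8.38 and 8.73 FPKM in Control against 3.83, 4.43 and 2.91 with IL-4. The groups did not overlap, and the log2 fold change was -1.27 (SE 0.17, adjusted p = 0.000939).

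More was called among other immediate-early genes. Of 20 such genes 17 were tested, and 5 were called higher and 1 lower with IL-4, and 7 higher and 1 lower under IL-6. With IL-4 these were 29.4% and 5.88% of the 17, where 5.02% of all genes were called higher and 8.89% lower. With IL-6 they were 41.2% and 5.88%, where the shares of all genes were 3.49% and 1.89%. The median difference was 0.59 with IL-4 (all genes -0.20) and 0.73 with IL-6 (all genes near 0). With the set as a term, 1 was called higher and 1 lower with IL-4, where 513 and 598 of the 12824 genes were. With IL-6, 0 were called higher and 1 lower in that fit, where 147 and 40 of all genes were.

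Fos, the AP-1 subunit, rose with both cytokines. It had 15.0, 14.2 and 15.9 FPKM in Control, 36.9, 41.6 and 28.4 under IL-4, and 30.4, 41.9 and 55.2 under IL-6, with log2 fold changes of 1.22 (adjusted p = 0.00577) and 1.45 (adjusted p = 0.00663). Every treated library stood above every Control library. The small MAF protein gene Maff was also higher with IL-6, by 1.42 (adjusted p = 0.00312). The IL-6 calls of Fos and Maff did not hold with the set as a term.

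Klf4, a Krüppel-like factor of monocytes and alternatively activated Mϕs, had the largest rise of the list. It stood at 1.20, 0.656 and 0.832 FPKM in Control and at 17.8, 26.6 and 12.2 with IL-4, for a log2 fold change of 4.22 (SE 0.31, adjusted p = 4.79e-05). The groups lay far apart.

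The orphan nuclear receptor gene Nr4a1 and the stress-induced ATF/CREB member Atf3 were each called in both directions. Nr4a1 fell with IL-4 by 1.52 on the log2 scale (adjusted p = 0.000414) and was 1.03 higher with IL-6 (adjusted p = 0.00849). Its IL-6 call was lost in the model with the set. Atf3 was 1.15 higher with IL-4 (adjusted p = 0.000801) and fell with IL-6 by 1.06 (adjusted p = 0.00372), the same directions as Egr2. Their tests of IL-6 against IL-4 gave 2.55 for Nr4a1 (adjusted p = 1.77e-05) and -2.21 for Atf3 (adjusted p = 1.7e-05).

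**Figure D4:**
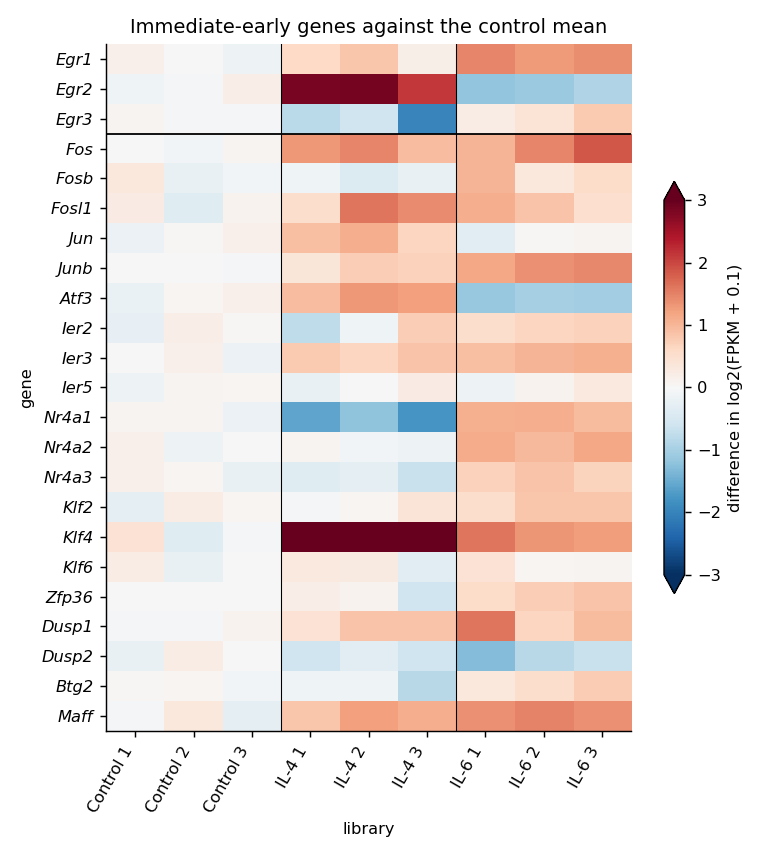
Difference of each library from the Control mean in log2(FPKM + 0.1) for Egr1, Egr2 and Egr3 (above the line) and 20 other immediate-early genes, with colours limited to 3 in either direction, a limit that Klf4 passes in the IL-4 libraries. Egr2 and Atf3 are red with IL-4 and blue with IL-6, Nr4a1 is blue with IL-4 and red with IL-6, and Fos and Maff are red with both.

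Genes that textbook accounts place under EGR control moved in both directions. Of 15 tested, 2 were called higher and 2 lower with IL-4, where 5.02% of all genes were called higher and 8.89% lower. With IL-6, 1 was called higher and 1 lower, where the shares of all genes were 3.49% and 1.89%. The list medians were -0.15 and -0.08. The median with IL-4 was 0.02 after median-ratio rescaling, and 7 of the 15 were then called, 5 higher and 2 lower. In that fit 834 of the 12824 genes were called higher and 874 lower. Higher with IL-4 were F3, the coagulation initiator tissue factor, by 2.61 (adjusted p = 0.000902), and the growth factor gene Pdgfa by 1.13 (adjusted p = 0.0046). The F3 values were low, 0.147, 0.132 and 0.180 FPKM in Control and 1.18, 2.13 and 1.19 with IL-4. With IL-6 the mean was 0.110 FPKM. F3 thus passed the filter of 0.5 FPKM, and entered the count above, only through the IL-4 libraries where it was high.

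Lower with IL-4 were the adhesion gene Icam1, by a log2 value of -1.63 (adjusted p = 0.0306), and Id3, an inhibitor of basic helix-loop-helix factors, by -1.76 (adjusted p = 0.00222). The Icam1 call was lost without the filter on low values, with the compared groups alone, in the model with the set, and when IL-4 #2 or any single Control or IL-6 library was left out. Id3 was lower with IL-6 too, at -1.23 (adjusted p = 0.0283), a call lost without the filter, in the model with the set, and when any single Control or IL-6 library was left out. The inflammatory cytokine gene Tnf was 1.38 higher with IL-6 (adjusted p = 0.0017), with 25.1, 22.0 and 21.4 FPKM against 8.95, 8.52 and 8.52 in Control. The Tnf call was lost in the model with the set. Nab2, also on this list, is described above.

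Of the MAX network, 11 of 14 genes were tested. With IL-4, Myc was called higher and Mxd1, which encodes a repressor that competes with MYC for MAX, was called lower. These are 9.09% of the 11 in each direction, where 5.02% of all genes were called higher and 8.89% lower. None was called with IL-6, where 5.38% of all genes were, and 2 had an adjusted p under 0.05 in limma. Mxd1 stood at 11.6, 10.5 and 11.2 FPKM in Control, 6.51, 5.56 and 3.32 under IL-4, and 19.4, 23.5 and 22.5 under IL-6. The order of the group means was the reverse of that of Myc, and the groups did not overlap. The log2 difference was -1.15 with IL-4 (SE 0.23, adjusted p = 0.00815), a call lost after median-ratio rescaling, quantile normalization or in the model with the set. With IL-6 it was 0.96 (adjusted p = 0.0394), just under the fold threshold, and 2.12 between IL-6 and IL-4 (adjusted p = 0.000278). Max itself differed by -0.08 and -0.16 with IL-4 and IL-6 and was not called.

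Genes of ribosome building, translation and metabolism that MYC is known to drive gave small differences that mostly shared a sign. Of 24 such genes, all tested, 1 (4.17%) was called higher with IL-4 and 0 lower. Among all genes 5.02% were called higher and 8.89% lower. By the adjusted p in limma without the fold threshold 8 passed, all higher, where 1096 of the 12824 genes passed as higher. The gene called was Ldha, which encodes a lactate dehydrogenase subunit. It had 106, 150 and 151 FPKM in Control against 279, 300 and 402 with IL-4, for a log2 fold change of 1.27 (SE 0.19, adjusted p = 0.00213). The difference was above 0 for 21 of 24 genes with IL-4, where 37.1% of all tested genes had one, with a median of 0.48 against -0.20 for all genes. After median-ratio rescaling the median was 0.67 with 23 above 0, and after quantile normalization 0.57 with 24.

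With IL-6, 21 of the 24 were below 0, with a median of -0.35, where 49.6% of all tested genes were above 0. None was called, where 5.38% of all genes were, while 1 had an adjusted p under 0.05 in limma. Between IL-6 and IL-4 all 24 were lower with IL-6, where 60.2% of all tested genes were higher. The median was -0.81 where that of all genes was 0.22. Of the 24, 9 (37.5%) were called lower, where 6.82% of all genes were. Those 9 were Nop56, Nop58, Fbl, Ppan, Rrp9, Gnl3, Srm, Nme1 and Hspd1, named because they make up the whole count. Most of them act in ribosome assembly. Without IL-4 #3, 6 of the 24 were called lower in that comparison, where 860 of the 12824 genes were. There, 22 of the 24 were lower in the fit with the set or without IL-4 #1 or IL-4 #2, and 23 without IL-6 #1. The comparisons with Control share the Control libraries.

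**Figure D5:**
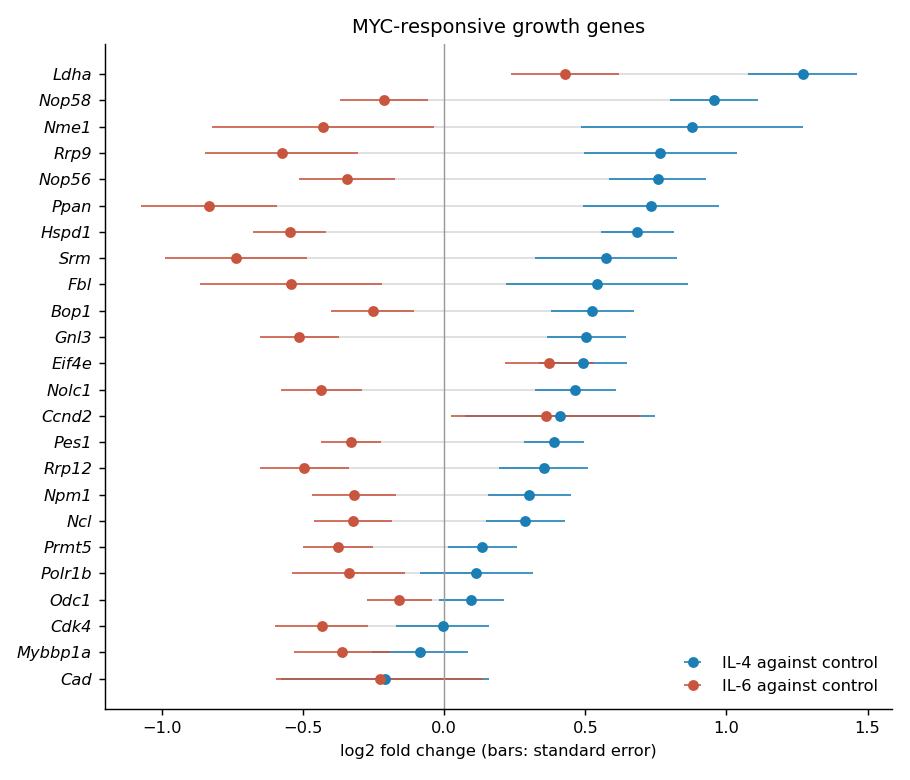
Log2 fold changes on the log2(FPKM + 0.1) scale, with standard errors, of 24 MYC-responsive growth genes for IL-4 (blue) and IL-6 (red) against Control, ordered by the IL-4 value. With IL-4, 21 lie above 0, and with IL-6, 21 lie below 0, and Ldha is the one gene called.

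Ordered by level, the 6 genes ran Nab2, Nab1, Egr2, Myc, Egr1 and Egr3 in Control #2 and #3, and Nab1 led in Control #1. The Nab1 and Nab2 levels overlapped in Control, as did those of Myc and Egr1. In IL-4 #1 and #2 the order was Egr2, Nab2, Myc, Nab1, Egr1 and Egr3, and in IL-4 #3 Myc stood above Nab2. In all 3 IL-6 libraries it was Nab1, Nab2, Egr1, Egr2, Myc and Egr3.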

How the data were processed

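The authors deposited FPKM of 53379 genes in 9 libraries, made by TruSeq stranded mRNA sequencing. The submitters' processing notes name STAR 2.4.2a, Cufflinks 2.2.1 and GRCm38, and any filter is not given in the sources used here. Identifiers matched GENCODE M21 with their version for 94.8% of genes. Low values were tested against M21 exon lengths: all 125445 values below 500 fragments came out whole within 0.05, so fragment counts were read back, and they cover counting error only. A read counter gives whole fragments and Cufflinks estimates abundance, and the methods name GENCODE M5, which was not tested here, so neither the program nor the annotation behind the table is settled.

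Genes whose FPKM averaged 0.5 or more (12824) were fitted as log2(FPKM + 0.1) with limma 3.58.1 (R 4.3.3; trend and robust options, 3 groups in a single model, Benjamini-Hochberg adjustment over all genes tested). Adjusted p-values in the text are from limma. The fit was tested on simulated data. Sums, shares and ratios of FPKM were compared by exact permutation tests. Motifs were searched on both strands of the 250 bases before RefSeq start sites. Python 3.11.15 and matplotlib 3.10.9 made tables and plots.

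One list of signalling genes is not reported here. The members, gene lists and marker lists were chosen with earlier results of these data known. Named are the 6 genes, up to 2 called genes in each direction from each list for each cytokine against Control whose libraries did not overlap, the 3 genes most alike to each of the 6, Socs3 and Arg1, and any others are named as the whole of a count or as a gene singled out. Nr4a1 and Atf3 were named by the rule for one cytokine each. Libraries were divided into sets at 100 summed fragments of the intestinal list.

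The labels give the same 3 numbers in each group and the design names 3 mice, so equal numbers were taken as the same mouse. Over tested genes, same-numbered deviations from the group means correlated at r of 0.521, -0.415 and 0.0777 for IL-4 with Control, 0.408, 0.201 and 0.166 for IL-6 with Control, and 0.281, -0.0612 and 0.153 for IL-6 with IL-4. Alternatives were other pseudocounts (1 and 0.01), dropping the filter or raising it to 5 FPKM, median-ratio rescaling, quantile normalization, fits of the compared groups, the replicate block, the set as a term, voom on recovered fragments, limma without its trend and robust options, no fold threshold, and leaving out each library.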

Additional observations from a re-analysis of the deposited data

How the results depend on the processing

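Across the alternatives, 772 values were counted as kept, 93 dropped below the threshold or shrank as counts, 31 passed it or grew as counts, and 1 reversed. Kept means the same side of the threshold for a gene, and for a count a change of at most 1.5 times. A change of sign was labelled reversed only where the main difference reached its standard error or the new fit was called. Egr2 and Myc with IL-4, and Egr2, Nab1 and Myc between the cytokines, passed in every fit. The reversal was Nab2 with IL-6 when the set of libraries was a term (0.019, adjusted p = 0.972), a fit that also took Egr1 with IL-6 to 1.48 (adjusted p = 0.104), Egr2 with IL-6 to -0.70 (adjusted p = 0.299) and Nab1 with IL-4 to -0.64 (adjusted p = 0.403). It called 1111 genes with IL-4, 187 with IL-6 and 0 of the 6 with IL-6. The causes of these shifts were not tested. Control and IL-6 share no set, and Egr3 was counted at 25 to 70 fragments in the IL-4 libraries.

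The replicate block, which pairs libraries of the same mouse number, left 1 of the 6 called with IL-6, since Egr2 gave -1.06 with an adjusted p of 0.0561. It left 1 of the EGR and NAB list called there too, and it changed no other call of the 6 genes. Under the block the other list counts moved by at most 1 in either direction.

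Single genes crossed a threshold in these further fits. Nab1 with IL-4 gave -1.16 without a filter (adjusted p = 0.0622) or with the compared groups alone (adjusted p = 0.0955), -0.97 with median-ratio rescaling and -0.99 with quantile normalization. Egr3 with IL-4 passed at -1.46 with voom (adjusted p = 0.0393) and at -1.13 without the trend and robust options (adjusted p = 0.0448). A pseudocount of 1 took Egr2 with IL-6 to -0.90 and Egr3 between the cytokines to 0.71. With no fold threshold, Egr1 between the cytokines counted at 0.85.

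With no fold threshold 3186 genes passed for IL-4, 1077 for IL-6 and 4375 between them, and with a mean FPKM of at least 5 the calls were 847, 306 and 1219. Of the 6 genes with IL-6, 1 was called with a pseudocount of 1 and 1 with a mean of at least 5.

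Counts of called list genes that moved by over 1.5 times are given next. For IL-4 against Control, the EGR and NAB list went to 1 without a filter, with either rescaling, with the compared groups alone and in the fit with the set. The SRF and MAPK list went to 2 with no fold threshold and with quantile normalization. The immediate-early list went to 2 in the fit with the set and, of the 13 genes tested with voom, 3 were called. The EGR-responsive list went to 10 with no fold threshold, 1 at a mean of at least 5 and 7 with median-ratio rescaling. The MAX list went to 1 with either rescaling and in the fit with the set, and the MYC-responsive list to 8 with no fold threshold and 2 with median-ratio rescaling.

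For IL-6 against Control, the EGR and NAB list went to 1 with a pseudocount of 1 or a mean of at least 5 and to 0 in the fit with the set. The immediate-early list went to 4 with a pseudocount of 1 and to 1 in the fit with the set, and with voom 4 were called higher and 1 lower of 13 tested. The EGR-responsive list went to 4 with no fold threshold or the compared groups alone, 1 without a filter or at a mean of at least 5, and 0 in the fit with the set. The MAX list went to 2 with no fold threshold and 1 without a filter, and the MYC-responsive list to 1 with no fold threshold. Between IL-6 and IL-4, the SRF and MAPK list went to 4 with no fold threshold and in the fit with the set, the immediate-early list to 8 with no fold threshold and 5 without a filter, the EGR-responsive list to 3 at a mean of at least 5, and the MYC-responsive list to 17 with no fold threshold.

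Leaving out each of the 9 libraries in turn gave -1.42 to -0.75 for Nab1 with IL-4, where 2 of 9 fits kept the call, -1.14 to -0.96 for Egr2 with IL-6, where 3 of 9 did, and -1.39 to -0.70 for Egr3 with IL-4. The lowest count of genes called with IL-6 was 387, without Control #3, and the highest 1001, without IL-4 #3. It was 445 without Control #2, 424 without IL-6 #2 and 408 without IL-6 #3. The 6 genes had 1 to 2 calls with IL-6. For IL-4 the ranges were 1 to 3 for the EGR and NAB, SRF and MAPK, MAX and MYC-responsive lists and 3 to 7 for the EGR-responsive list. For IL-6 they were 1 to 2 for the EGR and NAB list, 1 to 4 for the EGR-responsive list, and 3 to 8 for the immediate-early list. Between the cytokines they were 1 to 4 for SRF and MAPK and 3 to 5 for immediate-early genes.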

Other observations

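The genes whose levels ran most like each of the 6 were ranked by Pearson's r of log2(FPKM + 0.1) over the 9 libraries, among 5871 genes with enough spread. The libraries share 3 conditions and their sets, so r is given as a description. Itgax, the integrin subunit CD11c, followed Egr2 (r = 0.998) with means of 20.5 (Control), 334 (IL-4) and 6.40 FPKM (IL-6). Gm8113 (r = 0.998) and Bcar3 (r = 0.997) were as close. Nearest to Myc were Ncs1 (0.997), Spsb4 (0.997) and Ap2m1 (0.996), the last with means of 108, 231 and 90.8 FPKM in the same order.

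Egr1 ran closest to Itga1 (r = 0.981), Ptgfrn (0.975) and Csf2rb (0.969), of which Csf2rb, the shared receptor chain for GM-CSF, IL-3 and IL-5, had means of 69.6, 122 and 183 FPKM in Control, IL-4 and IL-6. Egr3 ran closest to Bcr (0.993), Kmo (0.990) and Ppp1cc (0.990). Nab1 ran closest to Adam17 (0.997), which encodes the protease that releases TNF, and to Ptpn1 (0.996) and Ralgps1 (0.995). Adam17 had means of 35.8, 17.7 and 53.2 FPKM. For Nab2 the highest values were lower, with Gm23301 and Heg1 at 0.921 and Jup at 0.869.

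Of genes under the filter on low values, the Myc relative Mycn was counted at 9, 3 and 3 fragments in Control, 6, 10 and 1 in the IL-4 libraries and 35, 63 and 38 in the IL-6 libraries. Every IL-6 library exceeded the other 6, and in the limma fit without the filter the difference from Control was 1.83 (adjusted p = 0.0227). Mycn was named after its values had been seen.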
